A study of Mus musculus with 36 samples.

Results

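The regions described here are the parts of the mouse autosomes whose replication was called late in CH12 cells, middle in primary B cells, and early or middle in fibroblasts. CH12 is a mouse B cell lymphoma line, and the cells (clone F3) had been infected with a lentivirus for a hairpin RNA to LacZ (shLacZ), which has no target in mouse cells and served as the control condition. The primary B cells were wild type (WT), came from the spleen and were activated in culture. The labels give the same growth entry for all of these libraries, which names CH12 cells and stimulation with IL4, CD40 and TGF beta. Mice of both sexes were used, and their age is not given in the sources used here. CH12 is 1 clone of a tumour line, and no expression was measured in these files, so the cell types could not be checked against marker genes. The assay for replication timing (RT) was Repli-seq, which sequences the DNA labelled by a BrdU pulse in cells sorted from early and late S phase. Each of these 2 conditions rests on 4 libraries, an early and a late fraction of 2 replicates. By the methods, replicates of CH12 cells came from separately thawed vials, each fraction was sorted as a pair of technical samples, and the origin of the primary B replicates is not described. In all, the series holds 36 libraries in 7 groups. The third map is named for WT mouse embryonic fibroblasts (MEFs), and no sample of the series carries that name. The study's list of data sources names MEF Repli-seq from an earlier series, so differences between the MEF map and the B cell maps cannot be told apart from differences between experiments.

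Each map divides the genome into 20 kb bins with 1 of 3 states, named early, middle and late here. Only early and late S phase were sequenced. By the methods, middle is a state with an intermediate ratio of early to late reads and not a sorted fraction. The regions were chosen by these states alone, so the states of a region are its definition and not a result. Of 120754 autosomal bins with a state in all 3 maps, 12192 were members, a background of 10.1%. They cover 243.84 Mb and form 982 runs of adjacent bins, and chromosome X was left out by the rule. There is 1 map per condition, made from pooled replicates. No replicate error can be given, and no test between conditions was made. State names were not in the files: the middle state is the one that touches both others, and of these the one denser in genes was named early. Gene density and GC content, which run together, are therefore not independent of the names. Intervals below cover counting error alone, and bins next to each other share their signal. The RT values and the read depth behind a state are not in the maps, so a change from late to middle has no size here.

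A cell copies its genome in domains that have a typical time in S phase. Early domains tend to be rich in genes, GC bases and open chromatin, and late domains tend to be poor in genes and to lie at the nuclear lamina. Part of the timing programme differs between cell types, and developmental genes often change timing when a lineage is chosen. Fibroblasts are mesenchymal cells that make extracellular matrix, which B cells do not.

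To show what kind of sequence lies at gene starts in these regions, the 200 bases before the annotated start are printed for 6 protein-coding genes, read 5′ to 3′ on the strand of the gene from the NCBIM37 (mm9) reference. Rfx3 and Nfia are the longest genes that start in the 2 longest runs. Fn1, Col1a2, Twist1 and Snai2 are genes of fibroblasts and were picked after their states were seen. Capitals mark CpG dinucleotides, the sites of DNA methylation. Nfia lies at chr4:97439225-97439424 (plus strand), Rfx3 at chr19:28085657-28085856 (minus), Fn1 at chr1:71699775-71699974 (minus), Col1a2 at chr6:4454614-4454813 (plus), Twist1 at chr12:34642336-34642535 (plus) and Snai2 at chr16:14705745-14705944 (plus).
Nfia: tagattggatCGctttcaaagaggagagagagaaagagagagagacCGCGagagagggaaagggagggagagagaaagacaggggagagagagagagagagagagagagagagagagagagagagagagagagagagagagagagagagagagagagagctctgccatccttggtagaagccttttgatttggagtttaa
Rfx3: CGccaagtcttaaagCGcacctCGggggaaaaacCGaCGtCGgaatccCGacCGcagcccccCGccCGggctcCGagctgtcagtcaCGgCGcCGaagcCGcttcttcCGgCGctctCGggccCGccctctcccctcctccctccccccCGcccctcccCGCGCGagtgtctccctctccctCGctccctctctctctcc
Fn1: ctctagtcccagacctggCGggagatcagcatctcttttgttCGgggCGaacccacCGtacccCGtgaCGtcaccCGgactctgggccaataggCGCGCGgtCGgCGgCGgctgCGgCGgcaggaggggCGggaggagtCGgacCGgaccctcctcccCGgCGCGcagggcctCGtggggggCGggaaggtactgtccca
Col1a2: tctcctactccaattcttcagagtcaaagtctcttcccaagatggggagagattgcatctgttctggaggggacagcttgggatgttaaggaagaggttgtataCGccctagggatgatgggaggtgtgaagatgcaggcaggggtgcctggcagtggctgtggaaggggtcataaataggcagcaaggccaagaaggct
Twist1: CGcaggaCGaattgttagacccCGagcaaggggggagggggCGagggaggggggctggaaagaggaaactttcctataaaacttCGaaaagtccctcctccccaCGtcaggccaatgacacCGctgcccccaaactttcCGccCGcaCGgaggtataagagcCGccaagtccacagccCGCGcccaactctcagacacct
Snai2: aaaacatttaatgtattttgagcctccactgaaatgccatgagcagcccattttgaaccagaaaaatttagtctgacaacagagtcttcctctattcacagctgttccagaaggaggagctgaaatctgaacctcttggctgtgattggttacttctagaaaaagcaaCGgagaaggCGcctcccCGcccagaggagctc

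These 6 windows hold 3, 24, 23, 1, 13 and 3 CpG dinucleotides in the order printed. A window was called CpG-rich when its observed over expected CpG ratio was at least 0.6 and its GC content at least 50%, which holds for Rfx3, Fn1 and Twist1. Gene starts are the outermost ones of the annotation, and other start sites were not examined.

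Late bins of CH12 cells that were middle in primary B cells were mostly not late in the MEF map either. Of 14996 such bins, 12192 were early or middle in the MEF map, which is 81.3% (Wilson 95% interval 80.7 to 81.9%). This describes the choice of the members and is no test. Of the 44240 bins late in both B cell maps, 32.8% (32.3 to 33.2%) were not late in the MEF map. Of the 827 CH12 late bins that were early in primary B cells, 84.5% (81.9 to 86.8%) were not late in the MEF map. A high share was thus not particular to bins that were middle in primary B cells. Over all autosomal bins this share was 71%. The share was higher in the first class than in the second on each of the 19 autosomes, by 48.25 ± 8.28 percentage points (SD, n = 19 autosomes). Autosomes are not replicates of a condition, and the spread over them only shows how even the genome is.

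Within the members, 9773 bins (80.2%) were middle and 2419 (19.8%) early in the MEF map. Early bins were 47.3% of all autosomal bins that were not late in the MEF map. The members thus lie mostly in the middle state of both WT primary B cells and MEFs. The share early in MEFs ranged over the autosomes from 5.73% on chromosome 12 to 28% on chromosome 11.

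**Figure D1:**
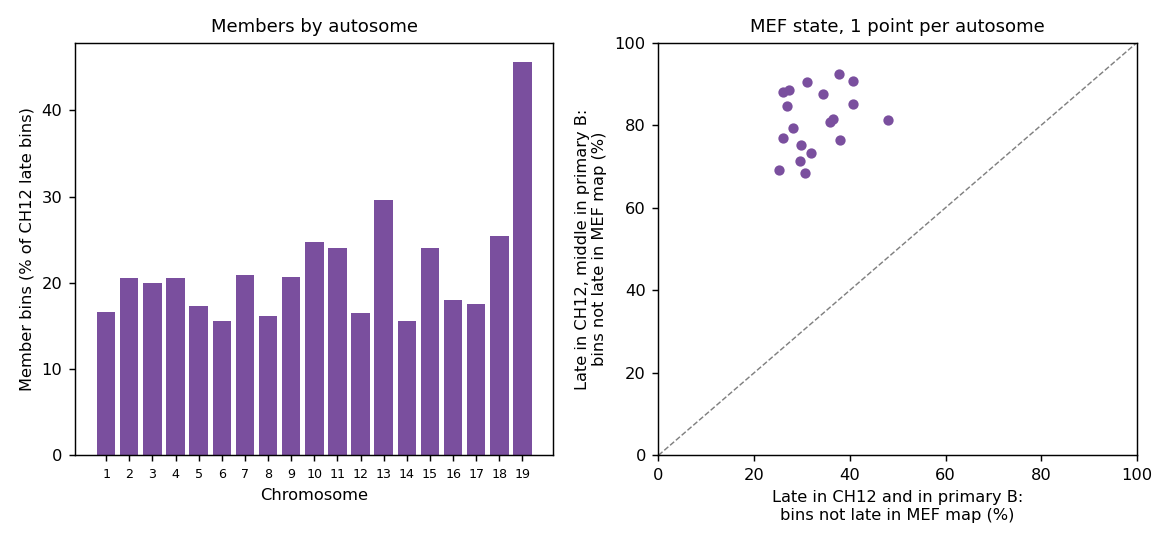
The left panel gives member bins as a percentage of the CH12 late bins of each autosome, and chromosome 19 stands highest at 45.6%. The right panel has 1 point per autosome and sets the share of bins not late in the MEF map among bins middle in primary B cells (y axis) against that among bins late in both B cell maps (x axis), with a dashed line of equality, and all 19 points lie above the line.

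Members were found on all 19 autosomes. They made up 10.4% ± 2.58 (SD, n = 19) of the bins of an autosome, from 7.57% on chromosome 11 to 17.3% on chromosome 19. As a share of the CH12 late bins they ranged from 15.5% on chromosome 6 to 45.6% on chromosome 19, with the next value of 29.6% on chromosome 13. Chromosome 19 is the smallest autosome and had 1165 late bins in CH12 cells, of which 531 were members. Of the 10 longest runs, 2 lie on it.

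The runs were short. Their median length was 180 kb (interquartile range 100 to 320 kb), 47 were a single bin, and 12 reached 1000 kb. The deposited states come from RT profiles smoothed over a span of 300 kb, and 689 runs (70.2%) were shorter than that span. The 293 runs of at least 300 kb held 7541 bins, or 61.9% of the members. By MEF state, 772 runs were middle throughout, 89 early throughout and 121 a mixture.

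Most runs lay at the border of a late domain of CH12 cells. Of the 982 runs, 129 (13.1%) filled a whole CH12 late domain, 708 (72.1%) touched 1 edge of a domain, and 145 (14.8%, Wilson 95% interval 12.7 to 17.1%) lay inside. This place was not particular to the members: 85.2% of the runs reached an edge, and 85.6% did when the MEF state was ignored. The late state covered 49.7% of autosomal bins in CH12 cells, 38.1% in primary B cells and 29.0% in MEFs. The part of this difference in the place of the runs was not tested. The whole domains were small, with a median of 340 kb, whereas the domains with an inside run had a median of 3420 kb. Inside runs were also longer than edge runs, with medians of 300 and 140 kb. Gene starts were denser in the inside runs, at 7.24 per Mb against 5.62 per Mb in edge runs. GC content went the other way, at 41.0% in inside runs and 41.8% in edge runs.

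**Figure D2:**
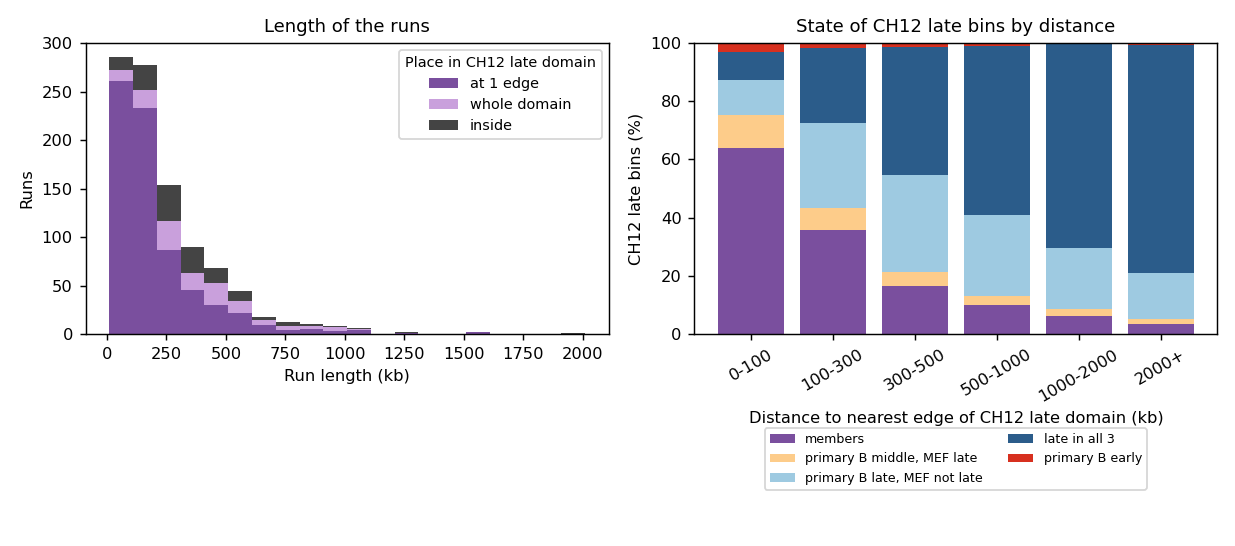
The left panel counts runs by length in steps of 100 kb, with colours for the place of the run in its CH12 late domain, and most runs are short and touch 1 edge. The right panel divides CH12 late bins by distance to the nearest domain edge (kb) and shows their states in the other 2 maps in percent, with members falling from 64.0% below 100 kb to 3.56% at 2000 kb and beyond.

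Distance from the edge followed the same pattern bin by bin. Below 100 kb from an edge, 64.0% of CH12 late bins were members. The share was 35.7% at 100 to 300 kb, 16.5% at 300 to 500 kb, 10.003% at 500 to 1000 kb, 6.37% at 1000 to 2000 kb and 3.56% beyond. The median distance was 140 kb for members, 220 kb for bins that were middle in primary B cells and late in MEFs, 520 kb for bins late in both B cell maps only, and 960 kb for bins late in all 3 maps. The bins that were middle in primary B cells were nearer to an edge than those late there, whatever the MEF state. The profiles were smoothed before the states were called, and its part in the states near an edge was not tested.

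Of 690 autosomal late domains in CH12 cells, 625 (90.6%) held a run. Small domains were members for the most part. In domains under 500 kb, 70.4% of the bins were members and 110 of the 159 domains had more member bins than other bins. In domains of 4000 kb or more the share was 8.03%, and 0 of 71 domains did. In all, 212 CH12 late domains had more member bins than others.

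In the primary B map, a middle stretch can join an early and a late domain, or stand alone between 2 late domains or 2 early domains. Of the members, 52.7% lay in stretches between early and late, 28.9% (28.1 to 29.7%) between 2 late domains and 16.8% between 2 early domains. Over all autosomal bins middle in primary B cells these shares were 49.3%, 22.7% and 25.1%. Of the 2804 bins that differ from the members only by being late in the MEF map, 38.1% lay between 2 late domains and 3.46% between 2 early ones. Of 1251 middle stretches in primary B cells, 840 held a member and 98 consisted of members alone.

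The bins just outside the runs show where the rule ended them. Of 1964 run ends, 950 (48.4%) were reached where the CH12 map became middle with the other 2 maps still within the rule. At 698 ends (35.5%) primary B cells became late, at 76 (3.87%) they became early, and at 195 (9.93%) the MEF map became late. The most frequent outside bin, with 741 ends, was middle in all 3 maps.

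**Figure D3:**
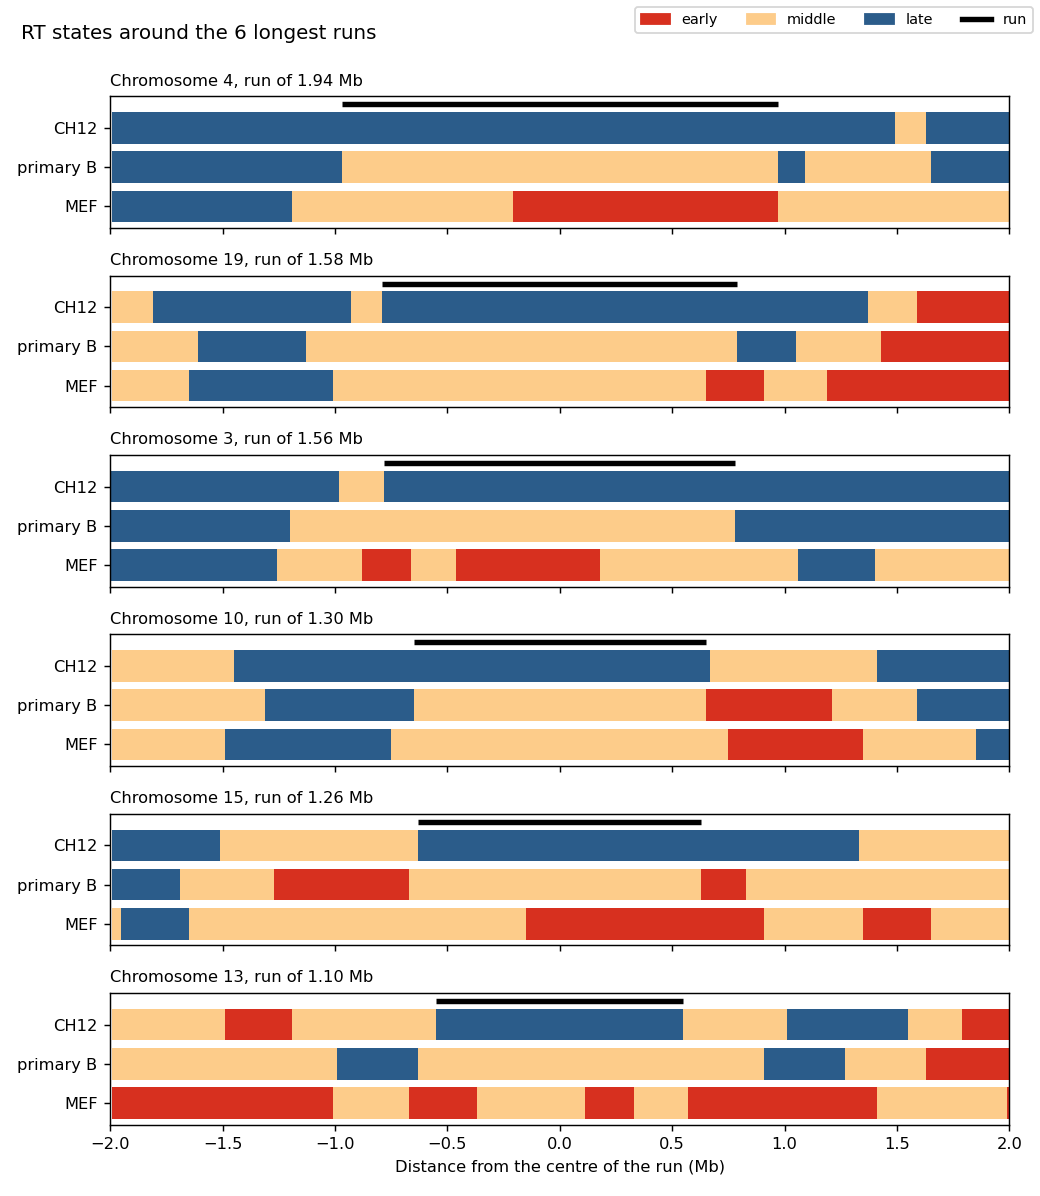
State of each 20 kb bin in the CH12 shLacZ, WT primary B and MEF maps within 2 Mb on either side of the centre of the 6 longest runs, with the run as a black bar and the distance from its centre in Mb on the x axis. In each, the CH12 track is late and the primary B track middle under the whole bar, and early blocks stand in the MEF track under the bar in all but the chromosome 10 run.

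The longest run lay at chr4:97140001-99080000, with 97 bins or 1940 kb. It stood inside a CH12 late domain of 3920 kb and was itself a whole middle stretch of primary B cells with a late domain on each side. In the MEF map 59 of its bins were early and 38 middle. It held 13 protein-coding genes. Among the longest were Nfia, a transcription factor of the nuclear factor I family (429.18 kb), Inadl, a scaffold of tight junctions (323.82 kb), E130114P18Rik, Atg4c, an autophagy protease, Kank4 and Tm2d1.

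The second and the third run each began at an edge of a CH12 late domain. The run at chr19:26700001-28280000 (1580 kb) held Rfx3, a factor for genes of cilia, Vldlr, the very low density lipoprotein receptor, Kcnv2, a potassium channel subunit, D19Bwg1357e and Gm815. Of its 79 bins, 7 were early in the MEF map. The run at chr3:27180001-28740000 (1560 kb) held 11 genes, among them Tnik, a kinase that acts with Wnt signalling, Fndc3b, Pld1, a phospholipase D, Slc2a2, the glucose transporter of liver and beta cells, Tmem212, the death ligand Tnfsf10 (TRAIL), Eif5a2 and the ghrelin receptor Ghsr. In the MEF map 38 of its 78 bins were early.

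The run at chr10:4340001-5640000 (1300 kb) had 0 early bins in the MEF map. It held Syne1, which encodes the nuclear envelope protein nesprin-1 and spans 530.49 kb, with Rgs17, Myct1, Mtrf1l, the neuropeptide gene Vip, Fbxo5, an inhibitor of the anaphase-promoting complex, and Gm10097. The run at chr15:5700001-6960000 (1260 kb) had 39 early bins among 63 and held the endocytic adaptor Dab2, Rictor, a subunit of the mTORC2 kinase complex, the T cell adaptor Fyb, the oncostatin M receptor Osmr and the complement gene C9. It lay between 2 early domains in primary B cells.

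The next 5 runs were 1020 to 1100 kb long. The run at chr13:110000001-111100000 filled a whole CH12 late domain and held Rab3c, a short model named Pde4d and Gm5455. The run at chr15:67280001-68380000 held Zfat and Gm10240, that at chr12:26440001-27520000 held Rnf144a and the antiviral genes Rsad2 and Cmpk2, and that at chr19:30980001-32000000 held only Cstf2t in full. The run at chr3:52880001-53960000 held Frem2, a protein of the embryonic basement membrane, with Stoml3, Nhlrc3, Ufm1, 2810046L04Rik and Gm10985. Rsad2 and Cmpk2 are neighbours that interferon induces together.

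The 3 longest runs that were early throughout in the MEF map were 820, 820 and 760 kb long. The run at chr2:60380001-61200000 held Rbms1 and Itgb6, an integrin beta subunit of epithelia. The run at chr4:55500001-56320000 held 1 protein-coding gene, Klf4, a transcription factor used to reprogramme fibroblasts. The run at chr10:119760001-120520000 held Hmga2, a chromatin protein of embryonic mesenchyme, with Msrb3, Lemd3, which encodes an inner nuclear membrane protein, and 4921513I03Rik. The chromosome 2 and chromosome 10 runs each filled a whole CH12 late domain and had bins on both sides that were middle in both B cell maps and early in MEFs.

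Several very long genes crossed the runs. The 10 protein-coding genes with the most member bins under their bodies were Fgfr2 (45 bins), Prkg1 (43), Pde4d (38), Syne1 (28), Rora (27), Accn1 (26), St6galnac3 (26), Ctnnd2 (25), Atrnl1 (24) and Magi2 (24). For Syne1 the whole body was in members, and for St6galnac3 96.3% of its bins were. The Fgfr2 model of this annotation spans 3009 kb, of which 29.8% was in members, and its own start lay in a bin outside them. Of the 10 genes, 3 started in a member bin, namely Prkg1, Syne1 and Accn1. Prkg1 encodes a cGMP-dependent kinase, Rora a nuclear receptor and Accn1 an acid-sensing ion channel.

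The members held 1462 protein-coding gene starts, 6.83% of the 21418 on the autosomes. Their density was 5.996 per Mb (exact Poisson 95% interval 5.69 to 6.31), below the 8.87 per Mb of all autosomal bins. Bins late in all 3 maps had 2.78 per Mb, and bins late in both B cell maps but not in MEFs had 3.23 (3.02 to 3.44). Members were denser than the latter on 18 of 19 autosomes, by 2.93 ± 2.11 per Mb (SD, n = 19). Bins middle in primary B cells and late in MEFs had 6.62 per Mb (5.96 to 7.32), an interval that overlaps that of the members. The latter class held many receptor genes: without olfactory and vomeronasal receptors it had 3.83 per Mb and the members 5.35. CH12 late bins that were early in primary B cells, whatever their MEF state, had 8.04 per Mb (6.73 to 9.53), above the members.

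Base composition differed from all 3 of these classes. Mean GC content was 41.7% in members, with an SD of 0.66 over the autosomes. It was 39.7% in bins that were middle in primary B cells and late in MEFs, 40.3% in bins late in both B cell maps but not in MEFs, and 38.2% in bins late in all 3 maps. On each of the 19 autosomes the members were higher than each of the 3 classes, by 2.10 ± 0.82, 1.36 ± 0.51 and 3.46 ± 0.74 percentage points (SD, n = 19). Members early in the MEF map were at 42.8% and those middle at 41.4%, and the early ones were higher on all 19 autosomes. Bins that were middle in both B cell maps and not late in MEFs were at 43.1%, above the members. The 827 CH12 late bins that were early in primary B cells were at 41.7%, the same as the members after rounding. Higher GC content among CH12 late bins was thus not particular to the members.

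**Figure D4:**
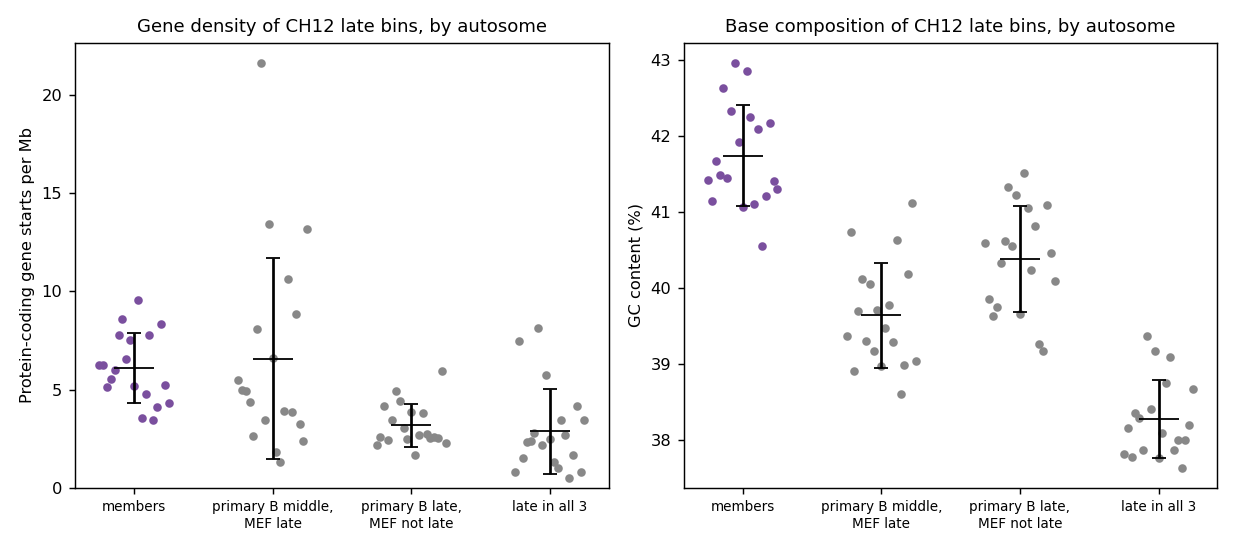
Protein-coding gene starts per Mb (left) and GC content in percent (right) of 4 classes of CH12 late bins, with 1 point per autosome and a black mark and bar for the mean ± SD over 19 autosomes. The members stand above the other classes shown in GC content, and in gene density they overlap the class that was middle in primary B cells and late in MEFs. CH12 late bins that were early in primary B cells, with 41.7% GC, are not shown.

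Genes that started in members had a median length of 18.6 kb, against 2.66 kb in bins late in all 3 maps and 15.5 kb over the autosomes. In bins late in both B cell maps only, the median was 18.8 kb. Without olfactory and vomeronasal receptor genes the medians were 23.8 kb in members, 8.70 kb in bins late in all 3 maps and 17.4 kb over the autosomes. In bins late in both B cell maps only it was then 22.4 kb. Of the 1462 genes, 279 (19.1%) were longer than 100 kb, against 10.6% of all autosomal genes. The share was higher, at 26.4% (247 of 935), in bins late in both B cell maps only. Starts with a CpG-rich window made up 30.7% (Wilson 95% interval 28.4 to 33.1%), between 9.00% in bins late in all 3 maps and 40.8% over the autosomes. Without the receptor genes these shares were 34.4%, 14.9% and 43.7%. The share was 42.0% for members early in the MEF map and 27.6% for those middle. In the windows printed above, Rfx3, Fn1 and Twist1 belong to this CpG-rich minority. The median window held 4 CpG dinucleotides in members and 7 over the autosomes.

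Many runs held no gene start at all. Of the 982 runs, 445 had 0 protein-coding starts, among them 46 of at least 300 kb. By bins, 51.5% of the members had no protein-coding gene body over them, against 75.2% of bins late in all 3 maps and 50.5% of autosomal bins. The richest run held 42 starts.

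Listed genes of B cells did not start in these regions. Of 25 B cell transcription factors, 40 genes of the B cell receptor and the B cell surface and 16 genes of plasma cells and germinal centres, 0 started in a member bin, beside 6.83% of all protein-coding genes. Few could have, since only 2 of the factors, 0 of the receptor and surface genes and 1 of the plasma cell and germinal centre genes started in a CH12 late bin. In primary B cells 23 of the 25 factors and 40 of the 40 receptor and surface genes lay in early bins.

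Some genes of mesenchymal cells did. Of 40 gene models of mesenchymal regulators and receptors, 7 started in a member bin (17.5%), and these were 7 of the 11 that were late in CH12 cells. They were Twist1, Snai2, Tcf21, Sox9, Tbx15 and Tead1, transcription factors of the mesoderm, the neural crest or the skeleton, and Cd34, a surface protein of stem cells and stroma. Over all protein-coding genes, 32.1% of those starting in CH12 late bins were members. Of the 7, Tead1 lay in a bin early in the MEF map and the other 6 in middle bins.

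Twist1 (chr12:34642536-34644682) lay in a run of 820 kb at the edge of a CH12 late domain, and Snai2 (chr16:14705945-14709488) in a run of 180 kb, both middle throughout in MEFs. Sox9 (chr11:112643538-112649074), the regulator of cartilage, was in a run of only 100 kb at an edge. The start of Tead1, a partner of the YAP coactivator, lay in a run of 160 kb that filled a whole CH12 late domain and was early throughout in MEFs. Runs of 100 to 180 kb are below the smoothing span.

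Of 35 collagen and matrix genes, 4 started in members (11.4%), beside 6.83% of all protein-coding genes. Of the 14 that were late in CH12 cells these 4 were 28.6%, below the 32.1% of all genes late there. In the MEF map 3 of the 4 were early. Fn1, which encodes fibronectin (chr1:71632094-71699774), lay in a run of 660 kb that filled a whole CH12 late domain and had 21 early and 12 middle bins in MEFs. Col1a2, a chain of type I collagen (chr6:4454814-4491543), lay in a run of 680 kb with 19 early bins. Lox, the enzyme that crosslinks collagen, lay on chromosome 18 in a run of 540 kb that was early throughout. The proteoglycan gene Dcn (chr10:96942245-96980777) lay in a run of 660 kb that was middle throughout. Another 9 genes of this list were late in both B cell maps and not late in MEFs, so the members hold the smaller part of the matrix genes that were late in CH12 cells. In the wider family of collagens named by symbol, 7 of 42 (16.7%) started in members. These 7 were 58.3% of the 12 collagen genes late in CH12 cells, above the 32.1% of all genes late there. Besides Col1a2 they were Col4a3 and Col4a4, which share a start region on chromosome 1, Col9a1, Col19a1, Col6a6 and Col10a1.

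**Figure D5:**
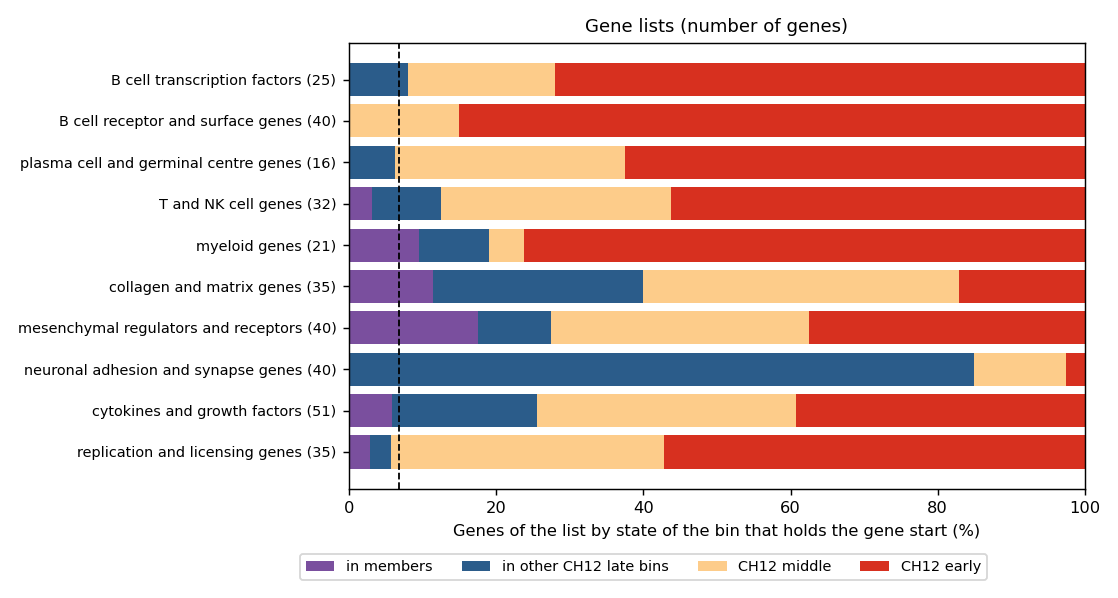
Each bar is 1 list of genes with its number of genes in parentheses, divided by the CH12 state of the bin that holds the gene start in percent, with members set apart from other CH12 late bins. The dashed line marks the 6.83% of all protein-coding genes that start in members, which the mesenchymal, matrix and myeloid lists exceed and the 3 B cell lists and the neuronal list, at 0, do not. Among genes late in CH12 cells, members were 28.6% of the matrix list, below the 32.1% of all genes.

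Neuronal genes took another place. Of 40 neuronal adhesion and synapse genes, 34 started in CH12 late bins, and 0 were members. Of these, 20 were late in all 3 maps and 12 were late in both B cell maps only. Beside these, 6.83% of all protein-coding genes and 32.1% of those late in CH12 cells were members. In the lists of other blood cells, Cd96 was the 1 member of 32 T and NK cell genes (3.12%), and Mrc1, the macrophage mannose receptor, and Tlr4, the receptor for lipopolysaccharide, were the 2 members of 21 myeloid genes (9.52%). Of 51 cytokines and growth factors, 3 (5.88%, close to the share of all genes) were members, namely Kitl, the ligand of the KIT receptor, Igf1 and Pdgfc. Of 35 replication genes, 1 (2.86%) was a member, Orc4, a subunit of the origin recognition complex.

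Of 57 chemokine and receptor genes 9 (15.8%) started in CH12 late bins, and these 9 were members, against 6.83% of all protein-coding genes and 32.1% of those late in CH12 cells. Ccl2, Ccl7, Ccl11, Ccl12, Ccl8 and Ccl1, attractants of monocytes and eosinophils among others, shared 1 run on chromosome 11 with 24 early and 20 middle bins in the MEF map. Cxcl1 and Cxcl2, attractants of neutrophils, shared a run on chromosome 5 that was early throughout in MEFs. Ccl20 lay on chromosome 1. The 9 genes thus stand for 3 places in the genome. Of 31 integrins 4 (12.9%) were members, Itgb6, Itgb8 and the neighbours Itga1 and Itga2, of 5 that were late in CH12 cells. Of 92 factors of the Sox, Fox, Pax, Gata, Tbx and Lhx families 9 (9.78%) were members, of 18 late in CH12 cells, and besides Sox9 and Tbx15 these were Pax3, Foxa2, Foxd3, Foxl2, Tbx20 and the neighbours Tbx3 and Tbx5. Of 47 Fgf, Wnt and Bmp ligands, 21 interferons and 34 interferon-induced genes of the Gbp, Slfn, Gvin and Ifi families, 0 were. Few could have been, since only 6 of the ligands, 1 interferon and 8 of the interferon-induced genes started in CH12 late bins. Of the 8, 7 were early in primary B cells.

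Sensory receptor genes were the largest families. Of 1106 olfactory receptor genes 95 (8.59%) started in members, and of 330 vomeronasal receptor genes 63 (19.1%), against 6.83% of all protein-coding genes. Of those late in CH12 cells, however, members were 11.96% of the olfactory and 24.9% of the vomeronasal receptor genes, below the 32.1% of all genes late there. In all, 532 olfactory receptor genes were late in all 3 maps. The authors kept unique alignments only, and the part of this filter in the states of clusters of similar genes was not tested. Without both families the members held 5.35 gene starts per Mb. Other clustered families stood on either side of the 6.83% of all protein-coding genes. Members were 17 of 98 cytochrome P450 genes (17.3%), which include Cyp7a1, the enzyme that limits bile acid synthesis. Of 97 keratin and keratin-associated genes 12 (12.4%) were members, keratin-associated genes in a single run on chromosome 11. Of 57 cadherin and protocadherin genes 7 (12.3%) were, protocadherin genes in a run of 60 kb on chromosome 18. Of 67 histone genes 6 (8.96%) were, in a run of 100 kb on chromosome 13. Zinc finger genes named Zfp were below, with 11 of 362 (3.04%). Among genes late in CH12 cells the order differed. Members were 42.5% of the cytochrome P450, 38.7% of the keratin and 17.1% of the cadherin genes late there. They were 30.6% of the 36 Zfp genes and 100% of the 6 histone genes late there, against 32.1% of all genes.

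MicroRNA genes stood out by 2 clusters, both at imprinted loci. Of 1468 autosomal microRNA genes 265 started in members, and 177 of the 265 lay in 2 runs. This and the next group were picked after the gene types of the members had been counted. Outside the 2 runs, 88 of 1291 microRNA genes (6.82%) started in members, close to the 6.83% of protein-coding genes. The run at chr2:10000001-10640000 held 119 microRNA genes, all within the body of Sfmbt2 and 68 of them named Mir466, Mir467, Mir669 or Mir297. Sfmbt2 is a Polycomb-related gene expressed from the paternal allele in the placenta. All 32 bins of the run were middle in the MEF map.

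The run at chr12:110500001-111320000 filled a whole CH12 late domain of 820 kb and held 58 microRNA genes with Dlk1, Meg3, Rtl1, Rian and Mirg, the imprinted Dlk1 to Dio3 locus. In the MEF map 3 of its 41 bins were early. Begain on 1 side and Dio3 on the other lay in bins that were middle in CH12 cells, so of the locus' genes looked up here Dio3 was outside the run. For 47 of the 58 genes RefSeq (GRCm38.p6) gave mature sequences, in all 87 mature microRNAs with 82 different seeds. The mature sequences of 4 of them are printed 5′ to 3′ with the seed, bases 2 to 8, in capitals, to show that these 4 have different seeds.
mmu-miR-127-3p: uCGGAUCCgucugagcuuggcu
mmu-miR-134-5p: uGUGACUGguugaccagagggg
mmu-miR-379-5p: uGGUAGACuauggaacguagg
mmu-miR-410-3p: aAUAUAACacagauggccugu

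Antigen receptor genes separated by locus. The annotation names variable (V) gene segments of immunoglobulins and T cell receptors as 1 type. Of 355 such segments on the autosomes 83 (23.4%) started in members, beside 6.83% of protein-coding genes and 10.1% of bins. In CH12 cells 190 of the 355 were late. Of the 83, 79 lay among the 108 segments of the T cell receptor alpha and delta locus on chromosome 14, in runs of 720 and 340 kb that each filled a whole CH12 late domain and were middle throughout in MEFs. In the immunoglobulin heavy locus on chromosome 12, 3 of 112 segments were members, and 81 were late in CH12 cells and middle in primary B cells but late in the MEF map. Among the immunoglobulin kappa and T cell receptor beta segments on chromosome 6, 1 of 124 was a member, 26 were late in CH12 cells and 113 were late in the MEF map. The chromosome 12 and 14 loci were thus late in CH12 cells and middle in primary B cells over most of their segments, and the MEF map set them apart.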

How the data were processed

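Repli-seq reads were processed by the authors: trimming (Trim Galore 0.6.5), alignment to mm9 (BWA 0.7.17), selection of unique alignments (SAMtools 1.9), merging of replicates, removal of duplicates, early over late ratios in 20 kb windows (deepTools), loess smoothing over 300 kb and a hidden Markov model with 3 states. The deposited maps hold domain coordinates and a state number, with neither RT values nor read counts, so the depth behind a state is unknown. Merging removes the replicate error and smoothing limits the resolution of edges. The states were computed per map, and the RT values that part them may differ between maps.

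Of the deposited maps, those of shLacZ CH12 cells, WT primary B cells and WT MEFs were used. The labels tie the MEF map to no sample, and the study's data list gives MEF Repli-seq as taken from an earlier series, so it was used as a map of the authors, without n. In each map 0 early domains touched a late one. Dropped were 3022 bins that have no state in primary B cells. Genes, GC content and sequences came from NCBIM37, whose lengths matched the end of all 20 chromosomes in each map. A gene was placed by the bin of its start. Bins, runs and genes were counted with Python 3.11.15, numpy 2.4.6, pandas 2.3.3 and scipy 1.17.1, with Wilson intervals for shares and exact Poisson intervals for densities, both at 95% and for counting only. The counting was tested on simulated maps of 26928 bins, where 7 of 7 known answers were recovered.

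The members and gene lists were chosen with earlier results of these data known. Named were the 10 longest runs, the 3 longest runs early throughout in MEFs, protein-coding genes wholly in them (at most the 8 longest), the 10 genes with the most member bins under their bodies and listed genes starting in members. Promoters were to be those of the longest gene starting in each of the longest runs, up to 8; the first 2 are shown. The alternatives covered chromosome X, bins near boundaries, run length, MEF state, gene types, edge tolerance, and, chosen after seeing the data, the MEF map and receptor genes. Some genes that the rule would name are not reported here. The other groups of the series were not analysed here.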

Additional observations from a re-analysis of the deposited data

How the results depend on the processing

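Of 62 values computed under alternative settings, 45 stayed within their error or, for counts, within 1.5 times. The 45 include values from settings that changed nothing, and these values test nothing. With chromosome starts (3 Mb) dropped, every value was identical to the main one, with 12192 members. Joining across gaps of up to 40 kb merged no runs, and 982 remained. Mean GC, at 41.7%, was also identical without bins of wholly unknown bases. With chromosome X the share not late in the MEF map was 77.8%. Without bins within 100 kb of a domain boundary it was 84.2%, and 4241 members were left. Runs of at least 300 kb numbered 293, with 7541 bins, a median of 460 kb and 71.7% at an edge. Bins early in MEFs numbered 2419 in 219 runs, with 6.49 genes per Mb, 42.8% GC and 76.3% at an edge, and for bins middle in MEFs that share was 76.7%. An edge tolerance of 100 kb gave 87.9%. All gene types gave 11.6 starts per Mb. Chosen after seeing the data, leaving out receptor genes gave 5.35 per Mb, and leaving out the MEF map gave 30.6% of bins in middle stretches between late domains. No paired analysis was possible because each condition has 1 map made from merged replicates. Leaving out a replicate was not run for the same reason. With neither RT values nor depth in the maps, a bin close to the border of 2 states cannot be told from one far from it.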
